A study of Mus musculus with 8 samples.

Results

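Astrocytes clear water, potassium and glutamate from around neurons, and the expression of 8 genes of these tasks was described in the injured mouse cortex. The genes were the water channel gene Aqp4, the potassium channel gene Kcnj10 (Kir4.1), the glutamate transporter genes Slc1a2 (GLT-1) and Slc1a3 (GLAST), the glutamine synthetase gene Glul, the connexin genes Gja1 (connexin 43) and Gjb6 (connexin 30), and the sodium-potassium pump subunit gene Atp1b2. They were taken by symbol, by a rule that used no measured value but was set with earlier results of these data known, and all 8 were found among the 21848 genes listed. Single-cell RNA-seq was run on the right sensorimotor cortex of adult mice 6 days after photothrombosis, a focal light-induced clotting of cortical vessels, in 4 mice given saline (control) and 4 given ancrod (fibrinogen-depleted). Ancrod, a snake venom enzyme that removes fibrinogen from blood, was delivered by subcutaneous minipump at 2.4 U per day from 2 days before injury until collection, and the control pumps held saline. All 8 mice were labelled female and of the genotype Bl/J6, whereas the methods of the study name C57BL/6N mice and both sexes for its animals in general. All were injured, and none carried an engineered allele in the labels, so there was no uninjured or untreated reference. The tissue was the lesion with the surrounding spared cortex, without meninges, depleted of myelin with beads but otherwise not enriched, so lesion and spared tissue are mixed in every library and no value has a position. Each mouse gave 1 library, and replicates 1 to 3 of each group formed 1 injury and sequencing batch, with replicate 4 of each group in another.

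In the healthy brain, Aqp4 and Kir4.1 are concentrated in the astrocyte endfeet that wrap blood vessels, where water and potassium leave the neuropil. GLT-1 and GLAST carry glutamate into the astrocyte together with sodium, Glul turns it into glutamine that is passed back to neurons, and the sodium-potassium pump restores the gradient that drives the uptake. Connexin 43 and connexin 30 form the gap junctions through which potassium, water and metabolites spread between neighbouring astrocytes.

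On the GRCm39 mouse assembly, which the deposited counts also used, the genes are scattered over the genome. Among them, Kcnj10 lies at chr1:172168765-172201652 (plus strand), Glul at chr1:153775690-153785469 (plus), Slc1a2 at chr2:102488574-102621129 (plus), Gja1 at chr10:56253241-56278609 (plus), Atp1b2 at chr11:69487651-69496851 (minus), Gjb6 at chr14:57360757-57371087 (minus) and Slc1a3 at chr15:8663604-8741595 (minus). The promoters of the members with the largest difference in each direction between astrocyte states, Kcnj10 and Gjb6, are shown so that their sequence can be set beside their opposite behaviour. Each is the 250 bases before the annotated start in RefSeq on the earlier GRCm38.p6 build, read 5′ to 3′ on the strand of the gene, chr1:172340960-172341209 for Kcnj10 and chr14:57133612-57133861 for Gjb6. Capitals mark TTGGC on either strand, the core letters of the motif bound by the nuclear factor I family, astrocyte transcription factors.
Kcnj10: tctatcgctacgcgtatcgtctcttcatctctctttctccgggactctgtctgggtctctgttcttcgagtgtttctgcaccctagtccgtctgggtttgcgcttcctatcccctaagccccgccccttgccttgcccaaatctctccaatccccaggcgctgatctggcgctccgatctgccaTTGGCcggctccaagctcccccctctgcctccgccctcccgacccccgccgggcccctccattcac
Gjb6: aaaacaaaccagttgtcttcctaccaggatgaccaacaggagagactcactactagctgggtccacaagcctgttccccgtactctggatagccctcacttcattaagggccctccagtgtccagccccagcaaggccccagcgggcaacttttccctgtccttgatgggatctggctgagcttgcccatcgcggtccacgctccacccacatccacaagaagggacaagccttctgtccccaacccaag
The Kcnj10 window was 62% G or C with 17 CG steps and held 1 match to TTGGC. The Gjb6 window was 56.8% G or C with 5 CG steps and held none. TTGGC occurred in 41.5% of 32851 promoter windows of this length, and the median window was 52.4% G or C. Of the other 4 members with a window in the table, Glul had 2 matches, Slc1a2 had 1, and Gja1 and Slc1a3 had none. The STAT motif TTCNNNGAA was found in the Slc1a3 window (7.02% of all windows) and the AP-1 motif TGANTCA in the Gja1 window (6.75% of all windows), both searched on both strands and neither overlapping a TTGGC match in these windows. These are matches of letters in a short window, not measured binding sites.

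Libraries held 97861434 to 122758649 unique molecular identifiers (UMIs, 1 per captured RNA molecule) in the saline mice and 126682918 to 142139441 in the ancrod mice, without overlap. After filtering, 44072 cells remained, of which 3967 were astrocyte-like by their marker genes. Of these, 2139 were in clusters that held more of the homeostatic markers (59 to 574 per mouse), 920 in clusters that held more of the reactive markers (36 to 212 per mouse), and 908 stayed of unnamed state. The unnamed cells were 729 led by Cmss1 and Camk1d, 142 led by C1qa and C1qc, and 37 led by Flt1 and Cldn5. Each of these subclusters had more leading genes of another cell class than of an astrocyte state. The 8 members were left out of the genes used for clustering. All 8 astrocyte markers were detected in both states. The state names were given by marker lists, so the levels of those lists describe the states and do not test them: the summed reactive list lay at 15056 to 18321 counts scaled to a total of 1000000 (CPM) in the reactive-like cells against 1479 to 4438 in the homeostatic-like cells, and the homeostatic list at 4123 to 5005 against 9613 to 13023. Gfap, the intermediate filament gene of reactive astrocytes, averaged 6210 CPM in the reactive-like against 1685 CPM in the homeostatic-like cells. Of the homeostatic list, only Aldh1l1 was higher in the reactive-like cells, at 439 CPM against 207 CPM. In the same mice the summed microglial marker list was at 97.1 to 180 CPM in reactive-like and 98.1 to 187 CPM in homeostatic-like cells, and the oligodendrocyte list at 39.4 to 95.9 CPM against 15.4 to 28.8 CPM, without overlap. Cells with UMIs of more than a single dividing marker (Mki67, Top2a, Cdk1, Cenpf and Ccnb2) were counted as dividing, with no correction for depth. They made up 2.78 to 19.1% of the reactive-like cells of a mouse and 0 to 0.565% of the homeostatic-like cells. The part of either difference in the results that follow was not tested. Values without dividing cells are given below, but deep cells are more readily counted as dividing.

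The first comparison asked how the 8 genes differed between the 2 astrocyte states within the same mice. A rise or fall below is a difference between these sets of cells, collected together, and not a change followed over time. Slc1a2, Slc1a3, Gja1, Gjb6 and, less, Glul were lower in the reactive-like cells, Kcnj10 and Aqp4 were higher, and Atp1b2 did not pass the test. Thus 2 of the 8 members were called higher and 5 lower (edgeR, adjusted p below 0.05), where 36% of the 11038 genes tested were called higher and 37.4% lower, 73.4% in all. Since most genes were called, the share of members called is close to the background, and the direction and size of each gene are what the comparison gives. The median log2 fold change was -0.45 over the members and -0.03 over all genes tested. The states were drawn from the other genes of the same cells, so these p-values measure how well a difference repeated over the 8 mice. All levels are CPM, UMIs of the gene scaled to the total UMIs of the state in a mouse, and since the chemistry reads the 3′ end of transcripts, levels are compared between cells and not between genes.

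Of the water and potassium genes, Kcnj10 had the largest rise. Its level in the homeostatic-like cells was 389, 252, 398 and 416 CPM in saline mice 1 to 4, and 499.7, 331, 384 and 333 CPM in ancrod mice 1 to 4. In the reactive-like cells of the same mice it was 734, 682, 528 and 699 CPM under saline and 546, 536, 608 and 493 CPM under ancrod. Every mouse was higher in the reactive-like state, and the 2 states barely overlapped, with the lowest reactive-like value just under the highest homeostatic-like one. The log2 fold change was 0.71 (SE 0.114, 95% interval 0.47 to 0.95, edgeR adjusted p = 1.25e-05), and the mean difference per mouse was 0.71 in the first batch and 0.66 in the second.

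Aqp4 also rose. Its homeostatic-like level was 1128, 965, 1565 and 1093 CPM in the saline mice and 1466, 1491, 1288 and 1421 CPM in the ancrod mice. Its reactive-like level was 1424, 1461, 2365 and 1883 CPM in the saline mice and 1421, 1584, 1377 and 2190.4 CPM in the ancrod mice. It was higher in 7 of 8 mice, the exception being ancrod mouse 1, and the states overlapped. The log2 fold change was 0.40 (SE 0.105, 95% interval 0.18 to 0.62, edgeR adjusted p = 0.0019), and within batches the mean difference was 0.28 and 0.70. When a further shallow cluster of astrocyte-marker cells led by Fabp7 and Ckap2, which had stayed unnamed, was counted as reactive-like, the Aqp4 value was 0.13 and its call was lost (edgeR adjusted p = 0.271).

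Both glutamate transporter genes were lower in the reactive-like cells of every mouse. Slc1a2, which encodes the main glutamate transporter of the adult cortex, lay at 16508, 13988, 17703 and 15492 CPM in the homeostatic-like cells of the saline mice and at 16305, 15734, 13393 and 17946 CPM in those of the ancrod mice. In the reactive-like cells it lay at 9210.2, 7188, 7419.5 and 6432 CPM under saline and at 7042, 8027, 6696 and 8927 CPM under ancrod. The 2 states did not overlap, and the gap between them was wider than the whole range of either group of reactive-like values. Slc1a2 was lower by 1.05 on the log2 scale (SE 0.0966, edgeR adjusted p = 7.08e-09). Its mean was 15884 CPM in the homeostatic-like and 7618 CPM in the reactive-like cells. Slc1a3 ranged from 4077 to 5207 CPM (median 4328) in the homeostatic-like and from 2571 to 3172 CPM (median 2828) in the reactive-like cells, again without overlap. It fell by 0.62 (SE 0.0866, edgeR adjusted p = 2.27e-06).

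Glul, which takes up the next step of glutamate handling, moved less. It ranged from 3307 to 4484 CPM (median 3723) in the homeostatic-like and from 2743 to 3660.0 CPM (median 3044) in the reactive-like cells. It was lower in 8 of 8 mice, but the ranges overlapped. The log2 fold change was -0.28 (SE 0.0903, edgeR adjusted p = 0.00901). This call did not hold everywhere: without dividing cells the value was -0.03 (edgeR adjusted p = 0.789), with a stricter filter on cells it was 0.02 (edgeR adjusted p = 0.892), and with states set by a score per cell it was -0.16 (edgeR adjusted p = 0.057).

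Of the connexin genes, Gjb6 had the larger fall. Its homeostatic-like level was 559, 546, 421 and 399.8 CPM in the saline mice and 561, 501, 458 and 338 CPM in the ancrod mice. Its reactive-like level was 226, 171, 217 and 221 CPM under saline and 241, 234, 201 and 158 CPM under ancrod. No reactive-like value reached the lowest homeostatic-like one. The log2 fold change was -1.16 (SE 0.0887, 95% interval -1.35 to -0.98, edgeR adjusted p = 4.59e-10). Gja1 ranged from 1474 to 2012 CPM (median 1602) in the homeostatic-like and from 834 to 1280.1 CPM (median 1002) in the reactive-like cells, also without overlap. It fell by 0.69 (SE 0.0892, edgeR adjusted p = 8.46e-07) and was lower in 8 of 8 mice.

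Atp1b2, the pump's beta2 subunit, was at 966 ± 59.3 CPM (SD, n = 8) in the homeostatic-like and 1026 ± 129 CPM (SD, n = 8) in the reactive-like cells, higher in 4 mice and lower in 4. The log2 fold change of 0.10 had a 95% interval of -0.08 to 0.27 (edgeR adjusted p = 0.327), so a change of the size seen in Kcnj10 or Gjb6 lies outside it. Its sign depended on the cells used. It was -0.18 with finer subclusters, -0.10 with score-based states and -0.12 with the shallow Fabp7 and Ckap2 cluster added, none called, whereas without dividing cells it was 0.37 and called (edgeR adjusted p = 0.000489). Slc1a2, Slc1a3, Gja1 and Gjb6 stayed lower and Kcnj10 stayed higher, each called, under every alternative run.

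**Figure D1:**
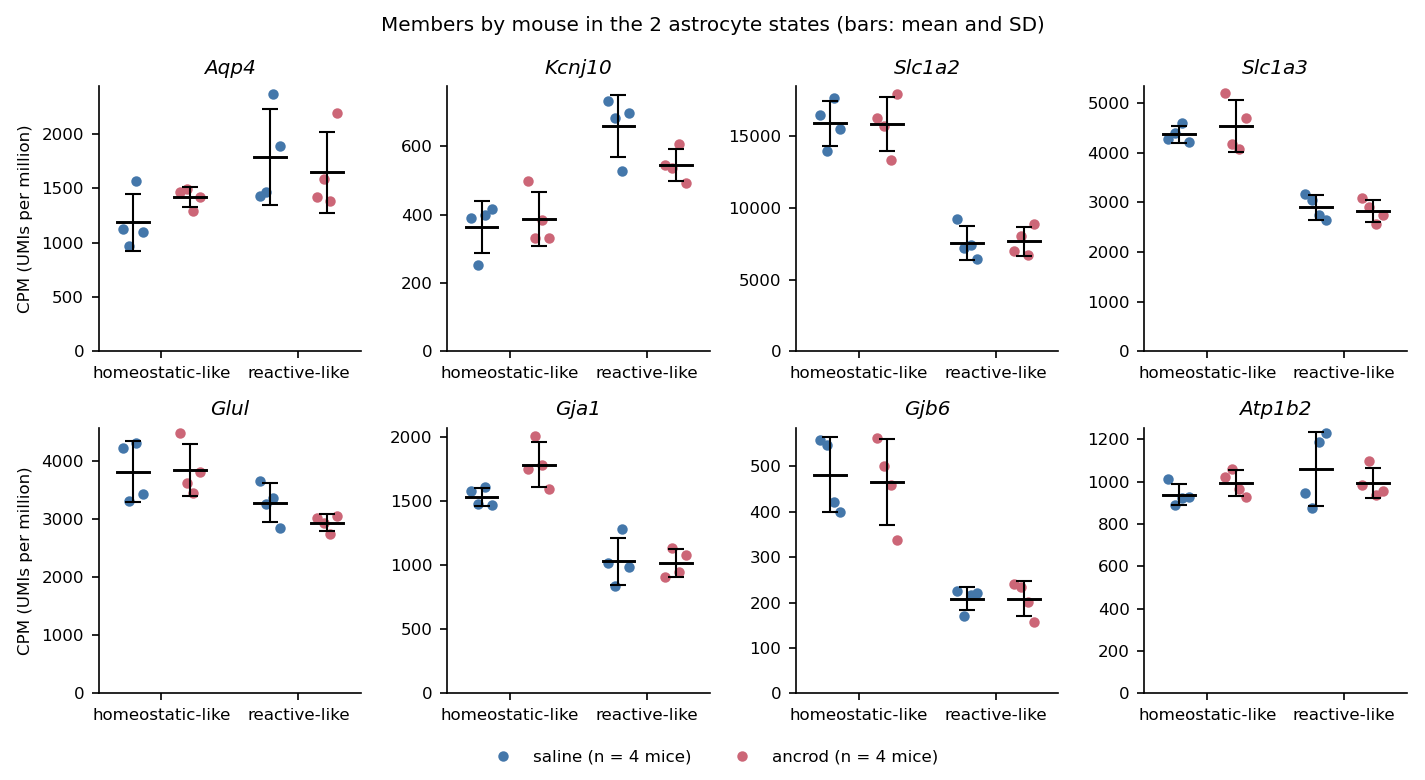
Levels of the 8 genes in each mouse, as CPM of the summed UMIs of a state on the vertical axes (each from 0), for saline and ancrod mice in the homeostatic-like and reactive-like cells. Points are mice, horizontal lines the means and error lines the SDs of 4 mice. Slc1a2, Slc1a3, Gja1 and Gjb6 show no overlap between the states, Kcnj10 is higher in the reactive-like cells of all 8 mice, and within a state the saline and ancrod points overlap for every gene.

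Since a sum over cells is weighted towards deep cells, the same contrast was set out over cells of equal depth. Each cell was thinned to 2000 UMIs and the expected share of cells keeping at least 1 UMI of a gene was averaged over the 8 mice. Kcnj10 was kept in 63.0% of reactive-like against 43.8% of homeostatic-like cells, Gjb6 in 29.1% against 57.8%, Gja1 in 68.3% against 85.3% and Slc1a3 in 89.7% against 99.7%. These directions are those of the sums. Aqp4 was kept in 78.9% against 76.2%, Atp1b2 in 72.7% against 74.9% and Glul in 96.1% against 96.2% of cells, and Slc1a2 in 98.3% against nearly 100%, too close to its ceiling to rank. In microglia-like cells, which should lack Aqp4 and Gjb6, the thinned shares were 0.654% and 0.173%. Without thinning, Gjb6 was seen in 66.3% of reactive-like and 91.3% of homeostatic-like cells, Kcnj10 in 89.8% and 83.9%, Gja1 in 86.5% and 94.1%, and Aqp4 in 90.5% and 94.1%, at a median over mice of 9465 and 13339 UMIs per cell and of 15640 in microglia-like cells. The unthinned order of Aqp4 was therefore the opposite of the thinned one.

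Both states were mixtures, and the members varied among their subclusters. The homeostatic-like cells comprised subclusters led by Gstm5 and Nnat (810 cells), by Fry and Gpc5 (790 cells), by the interferon-response genes Cxcl10 and Rsad2 (254 cells), and a shallow one led by Kcnip4 and Taco1 (285 cells, median 6209 UMIs). Glul averaged 4657 CPM in the first and 3282 CPM in the second, whereas Gjb6 averaged 441 CPM and 575 CPM. The interferon-response subcluster had the highest mean of Aqp4 among the homeostatic-like cells, 1750.4 CPM, with a range of 696 to 2277 CPM over 7 mice that spans those of the Gstm5 and Fry subclusters. In the shallow subcluster the means of all 8 members were under those of the other 3 homeostatic-like subclusters, among them Aqp4 at 503 CPM, Glul at 1086 CPM, Gja1 at 536 CPM, Atp1b2 at 334 CPM and Slc1a2 at 12189 CPM. The unnamed Cmss1 and Camk1d subcluster (729 cells) scored higher on the homeostatic than on the reactive list (0.635 against 0.257). It averaged 685 CPM of Kcnj10, 1601 CPM of Aqp4, 6530 CPM of Glul and 15730 CPM of Slc1a2 (n = 8). These cells were in neither state, and their part in the state differences was not tested.

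The reactive-like cells comprised a subcluster led by Lcn2 and Igfbp2 (538 cells), one led by Tm4sf1 and Slc5a3 (294 cells) and one led by Myoc with C3 among its leading genes (88 cells). The second was deep, at a median of 41054 UMIs against 4999 in the first, so it held 32.0% of the reactive-like cells but 68.5% of their UMIs. A dividing marker was seen on average in 23.4% of its cells, against 5.47% in the first. Leaving out dividing cells therefore takes more from the second subcluster. Glul averaged 3945 CPM in the first and 2999 CPM in the second. Slc1a2 lay at 7600, 7720 and 7385 CPM in the 3, each under every homeostatic-like subcluster mean. Kcnj10 did not follow that pattern. It averaged 780.1 ± 213 CPM (SD, n = 8) in the Lcn2 and 622 ± 93.7 CPM (SD, n = 7) in the Tm4sf1 subcluster, but 277 ± 27.1 CPM (SD, n = 4) in the Myoc subcluster, whose highest mouse (310.1 CPM) was under the lowest of the other reactive-like subclusters (507 CPM). Aqp4 was the reverse, with 2969 ± 319 CPM (SD, n = 4) in the Myoc subcluster against 1598 ± 488 CPM (SD, n = 8) and 1436 ± 247 CPM (SD, n = 7) in the other 2, and no mouse of either reached the lowest Myoc value of 2729 CPM. The Aqp4 means of these other 2 lay between those of the homeostatic-like Gstm5 (1424 CPM) and interferon-response (1750 CPM) subclusters. They were above those of the Fry (1117 CPM) and Kcnip4 (503 CPM) subclusters. Gjb6 (98.0 CPM), Slc1a3 (1550.1 CPM), Atp1b2 (609.9 CPM) and Glul (2244 CPM) also had their lowest reactive-like means in the Myoc subcluster, and Gja1 (1157 CPM) did not. The Myoc subcluster had at least 10 cells in only 4 mice, and these levels are given as a description, without a test. With the finer subclusters, only those led by Tm4sf1 (224 cells) and Myoc (88 cells) were named reactive-like. Those led by Mrps6 and Nupr1 (314 cells) and by Trf and Lcn2 (203 cells) stayed unnamed. The latter had more leading genes of oligodendrocyte precursors. The results with finer subclusters therefore rest on a smaller part of the reactive-like cells.

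**Figure D2:**
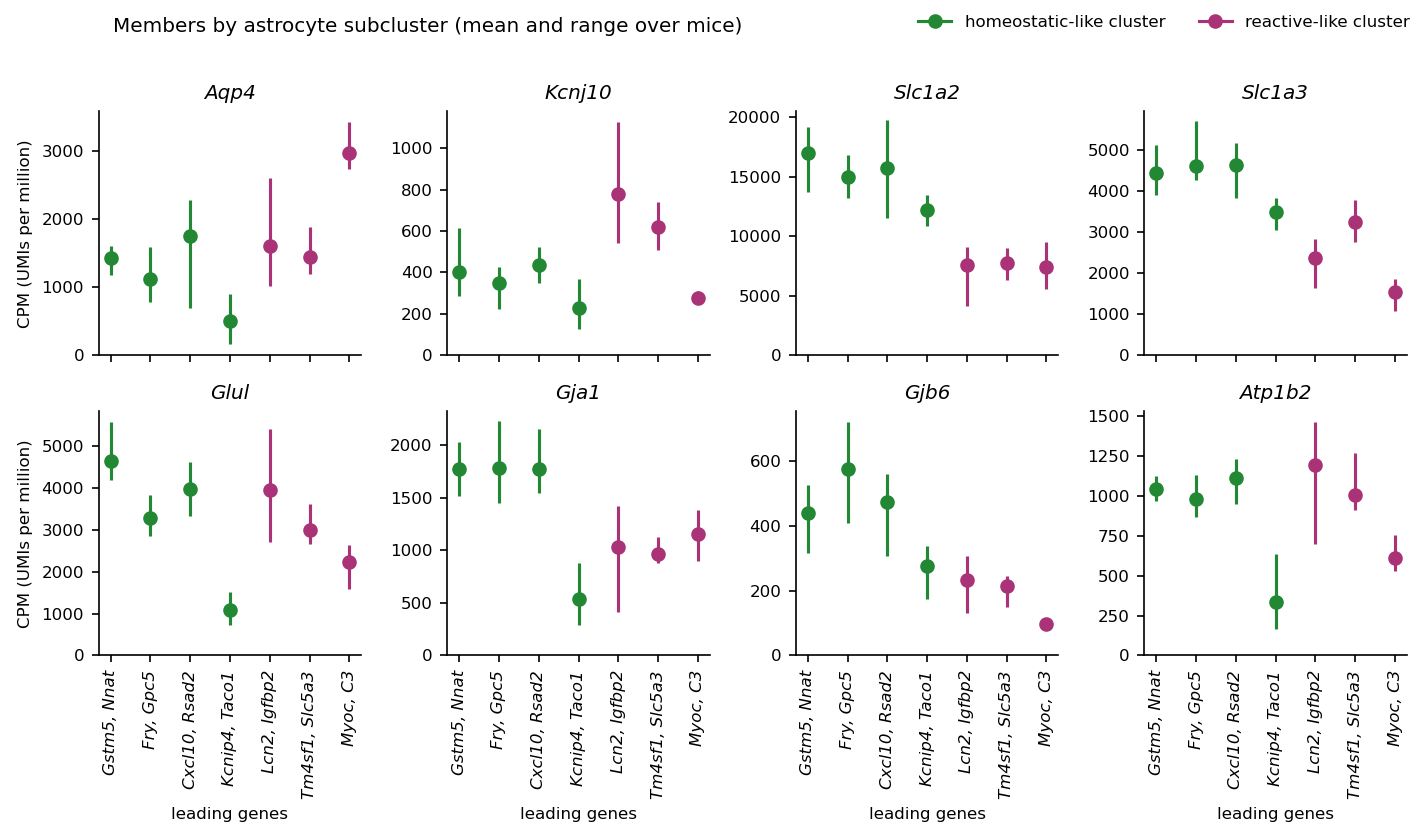
Mean CPM of each gene (points) and its range over mice (lines) in the 4 homeostatic-like and 3 reactive-like subclusters, named on the horizontal axis by their leading genes. The Myoc subcluster has the highest Aqp4 (2969 CPM) and, among reactive-like subclusters, the lowest Kcnj10 (277 CPM), and Slc1a2 is lower in all 3 reactive-like subclusters than in the homeostatic-like ones.

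Ratios of summed UMIs in 3 gene pairs asked whether paired genes moved by the same amount, with 9 ratio tests in all (Benjamini-Hochberg adjusted). Such a ratio is compared between cells and does not rank the 2 genes. The Slc1a2 to Slc1a3 ratio ranged from 3.13 to 3.87 in the homeostatic-like and from 2.28 to 3.24 in the reactive-like cells and was lower in the reactive-like cells of 8 of 8 mice. Its mean log2 difference was -0.43 ± 0.107 (SD, n = 8, exact two-sided sign-flip permutation p = 0.00781, adjusted 0.0352). The Gja1 to Gjb6 ratio ranged from 2.70 to 4.72 and from 3.78 to 6.81 and was higher in the reactive-like cells of 8 of 8 mice, by 0.47 ± 0.230 (SD, n = 8, exact permutation p = 0.00781, adjusted 0.0352). This p is the smallest that 8 pairs can give. The 2 members of each pair fell, but Slc1a2 fell more than Slc1a3 and Gjb6 more than Gja1. The Kcnj10 to Aqp4 ratio was higher in 5 of 8 mice, by 0.31 ± 0.383 (SD, n = 8), which did not pass the test (exact permutation p = 0.0938, adjusted 0.281). With states set by a score per cell, the Slc1a2 to Slc1a3 difference was -0.14 (adjusted p = 0.246, exact permutation). This call therefore depended on how the states were drawn. The Gja1 to Gjb6 difference with these states was 0.39 (adjusted p = 0.0703, exact permutation). That is the lowest adjusted p that 8 pairs allow over the 9 ratio tests when no other ratio reaches as low a p. The lost call of Gja1 to Gjb6 therefore decides nothing about that ratio.

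**Figure D3:**
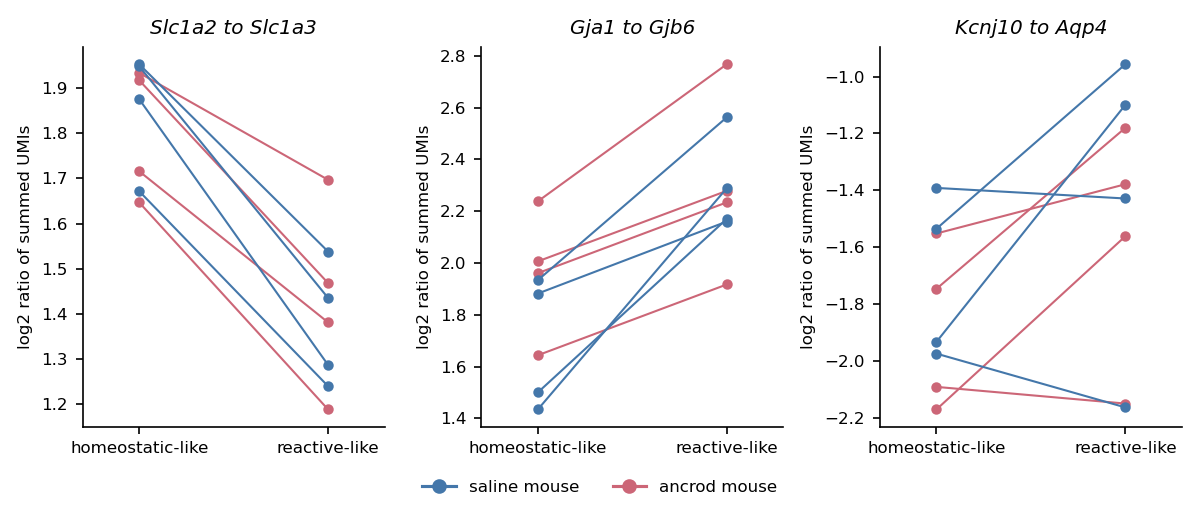
Log2 ratio of summed UMIs of Slc1a2 to Slc1a3, Gja1 to Gjb6 and Kcnj10 to Aqp4 (vertical axes) in the homeostatic-like and reactive-like cells of each mouse, with a line joining the values of 1 mouse and colours for saline and ancrod. The first ratio is lower in the reactive-like cells of 8 of 8 mice, the second higher in 8 of 8 and the third higher in 5 of 8.

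Of 32 further genes of water, potassium, glutamate and gap junction handling, 26 could be tested between the states, with 7 called higher, 13 lower and 6 not called (edgeR, against the backgrounds of 36% and 37.4% above). Their median log2 fold change was -0.23. Around the endfoot channels, the dystrophin complex genes Dtna (alpha-dystrobrevin) and Dmd (dystrophin), whose products help to anchor Aqp4 in the endfoot membrane, were lower. Their mean levels went from 1494 to 495 CPM for Dtna and from 574 to 319 CPM for Dmd, the opposite direction to that of Aqp4. Dag1 (dystroglycan), of the same complex, was not called at -0.18 (edgeR adjusted p = 0.0515). The low-expressed aquaglyceroporin gene Aqp9 was also lower, with means of 17.6 and 8.82 CPM. Kcnj16, whose product pairs with Kir4.1, did not pass at 0.21 (edgeR adjusted p = 0.0672), beside the rise of Kcnj10.

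In glutamate handling, the cystine-glutamate exchanger gene Slc7a11 fell by 1.02 and the metabotropic receptor gene Grm3 by 0.97 on the log2 scale, while the receptor gene Grm5 was higher by 1.20 (mean 129.8 and 282 CPM). The GABA transporter gene Slc6a11 fell by 1.07. The glutamine transporter gene Slc38a1 had the largest difference of the 26 tested, 2.38 (SE 0.294), from a mean of 26.9 CPM to 143 ± 89.2 CPM (SD, n = 8, range 80.6 to 330.2 CPM). The pump subunit gene Atp1b1, higher by 1.05 (mean 244 and 499 CPM), passed where its family member Atp1b2 had not. Gjb2, the connexin 26 gene, was higher by 0.83 at low levels (14.6 and 27.8 CPM), against the fall of Gja1 and Gjb6. All those said here to be higher or lower passed the edgeR test, with adjusted p of at most 4.12e-05.

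The second comparison asked whether fibrinogen depletion by ancrod changed the 8 genes within a state. No member was called in the homeostatic-like cells, where 0.009% of 11108 genes were (1 gene, Lrrn1), and none in the reactive-like cells (0% of 10955) or in all astrocyte-like cells together (0% of 12329). At an unadjusted p below 0.05 the edgeR test held 645, 324 and 523 genes in these 3 comparisons, and DESeq2 called 3, 0 and 1 genes and no member. The saline and ancrod mice overlapped for every member in both states. What the design allows is therefore an interval for each gene. The median log2 fold change of the members was 0.09 in the homeostatic-like and -0.07 in the reactive-like cells, where the median over all genes tested was -0.00 and 0.00.

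Aqp4 and Gja1 had the largest differences in the homeostatic-like cells. The Aqp4 values given above average 1188 ± 261 CPM (SD, n = 4) under saline and 1416 ± 90.3 CPM (SD, n = 4) under ancrod, a log2 difference of 0.28 (95% interval -0.05 to 0.60, edgeR adjusted p = 0.869), and within batches it was 0.24 and 0.38. It was 0.17 without saline mouse 2, 0.45 without saline mouse 3 and 0.53 with the stricter cell filter, not called in any. Saline mouse 3, the highest of all 8, lay above every ancrod mouse, while the other 3 saline mice lay under all of them. Gja1 was at 1580.3, 1474, 1609.7 and 1474 CPM under saline and 1753, 2012, 1784 and 1594 CPM under ancrod, a difference of 0.24 (95% interval -0.00 to 0.49, edgeR adjusted p = 0.86), with 0.25 and 0.11 within batches. Only ancrod mouse 4 fell among the saline mice. For the other 6 members the homeostatic-like differences lay between -0.03 (Gjb6) and 0.11 (Kcnj10 and Atp1b2), with Slc1a2 at 0.02, Slc1a3 at 0.08 and Glul at 0.03. The sign differed between batches for Kcnj10 (0.23 and -0.32), Slc1a2 (-0.08 and 0.21), Glul (-0.03 and 0.16), Gjb6 (0.00 and -0.24) and Atp1b2 (0.11 and -0.00), and of these 6 members only Slc1a3 kept it (0.01 and 0.15). For Kcnj10, without saline mouse 2 or ancrod mouse 1 its sign turned too, and no alternative called it.

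In the reactive-like cells, Kcnj10 differed most, at 661 ± 91.3 CPM (SD, n = 4) under saline and 546 ± 47.1 CPM (SD, n = 4) under ancrod. The log2 difference was -0.29 (95% interval -0.53 to -0.04, unadjusted p = 0.0264, edgeR adjusted p = 1), lower in both batches at -0.19 and -0.50, and it did not survive correction over the genes tested. Saline mouse 3 (528 CPM) lay among the ancrod mice. Glul was at 3287 ± 333 and 2943 ± 143 CPM (SD, n = 4 each), a difference of -0.16, with -0.24 and 0.10 within batches. Aqp4 differed by -0.12 and Atp1b2 by -0.10, and Slc1a2 (0.02), Slc1a3 (-0.04), Gja1 (-0.02) and Gjb6 (-0.00) by less. Kcnj10 was the only member with the same sign in both batches. Aqp4 (-0.22 and 0.22), Slc1a2 (-0.13 and 0.47), Slc1a3 (-0.07 and 0.06), Gja1 (-0.05 and 0.13), Gjb6 (0.15 and -0.48) and Atp1b2 (0.01 and -0.36) turned with the batch, as Glul did, where the second batch has 1 mouse per group.

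The difference between the states in their response to ancrod was tested directly, and no member was called (0% of 11038 genes, 469 at an unadjusted p below 0.05 in edgeR). Aqp4 was nearest, its log2 ancrod effect in the reactive-like cells minus that in the homeostatic-like cells being -0.42 (95% interval -0.83 to -0.01, unadjusted p = 0.0463, edgeR adjusted p = 1). Kcnj10 followed at -0.40 (95% interval -0.85 to 0.06, edgeR adjusted p = 1), and at -0.20 without saline mouse 2 and -0.25 without ancrod mouse 1. Over all astrocyte-like cells the member differences lay between -0.12 (Gjb6) and 0.13 (Gja1), and the widest interval, that of Slc1a2, was -0.39 to 0.39. None of the 26 tested genes of the wider list was called under ancrod in any of these comparisons. Among its larger differences were -0.39 for Slc38a1, 0.33 for Dag1 and 0.29 for Mlc1 in the homeostatic-like cells, and 0.29 for Slc7a11 and -0.28 for Gjb2 in the reactive-like cells.

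**Figure D4:**
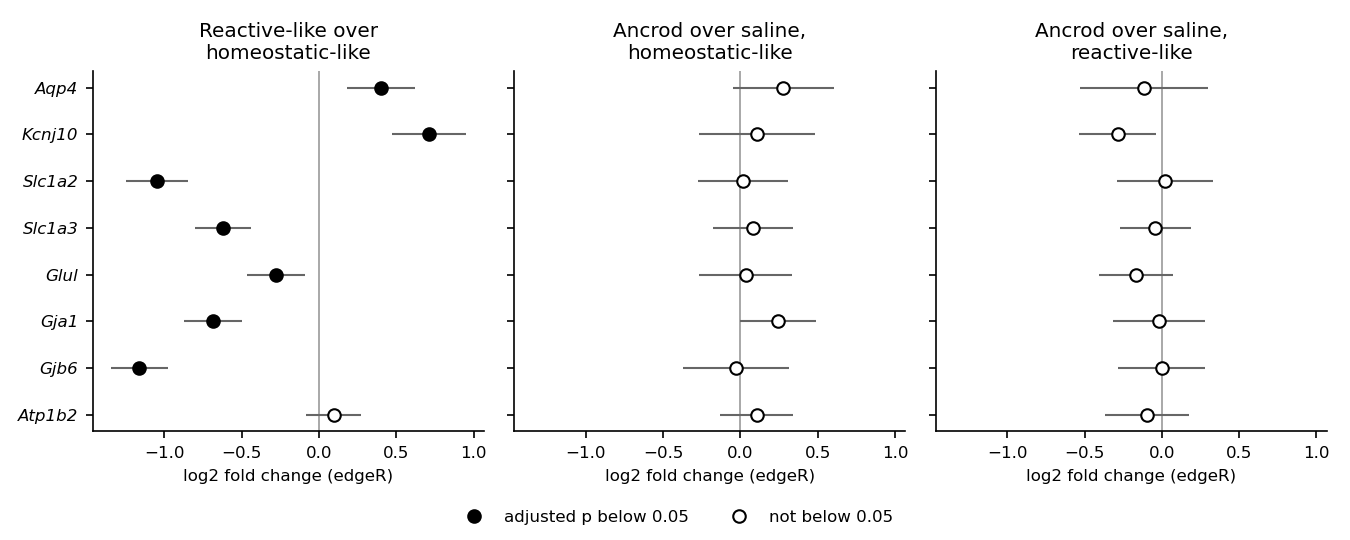
Log2 fold changes of the 8 genes (points) with their 95% intervals (lines) for reactive-like over homeostatic-like cells and for ancrod over saline in each state, with filled points where the edgeR adjusted p was below 0.05. In the first panel 7 of 8 points are filled, from -1.16 for Gjb6 to 0.71 for Kcnj10, and in the ancrod panels none is.

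The share of cells was also followed, since the members' totals depend on it. Astrocyte-like cells made up 6.70 ± 3.98% (SD, n = 4) of cells under saline and 11.3 ± 6.11% (SD, n = 4) under ancrod (exact permutation p = 0.286), and reactive-like cells 28.7 ± 8.83% and 36.4 ± 17.5% of the cells in both named states (exact permutation p = 0.543). Ancrod mouse 1 stood at 61.9% in the latter, and without it the ancrod mean was 0.838 points under the saline mean. None of the 5 shares passed its test after adjustment, the nearest being the cells of unnamed state at 16.8 ± 3.47% and 24.6 ± 4.80% of astrocyte-like cells (exact permutation p = 0.0571, adjusted 0.286). The shares also depend on how tissue was cut and cells survived dissociation, whose part was not tested. Of 16 tests of ancrod against saline on the thinned share of cells with a UMI of a member, none passed (lowest adjusted p = 0.838, exact permutation), and an exact test of 4 against 4 mice can go no lower than 0.0286 before adjustment.

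How far the 8 genes are astrocyte genes in this tissue was read from their UMIs over all cells. Pooled over the 8 mice, which weights mice with many astrocytes, astrocyte-like cells held 93.7% of the Slc1a2 (89.9 to 96.4% by mouse), 91.2% of the Aqp4 (79.2 to 94.6%), 81.3% of the Kcnj10 (62.1 to 88.3%) and 77.0% of the Atp1b2 UMIs (54.8 to 88.0%). They held 68.4% of the Slc1a3 (41.8 to 83.9%) and 65.3% of the Gjb6 UMIs (40.9 to 87.1%), with pooled shares of 19.8% of Slc1a3 in microglia-like and 30.2% of Gjb6 in fibroblast-like cells. Gja1 and Glul were spread most, with 47.6% (29.8 to 75.1%) and 39.7% (14.4 to 62.3%) in astrocyte-like cells. Fibroblast-like cells held 35.4% of the Gja1 UMIs, and microglia-like and endothelial-like cells held 23.9% and 18.6% of those of Glul. Free RNA from broken cells adds astrocyte transcripts to every droplet, so each level in another class was set against the level that the astrocyte markers had there.

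For Glul, the order of levels ran from homeostatic-like (3832 ± 452 CPM, SD, n = 8) and reactive-like astrocytes (3115 ± 299.9 CPM, SD, n = 8), which overlapped, to endothelial-like cells at 816 ± 60.3 CPM (SD, n = 8). Fibroblast-like cells at 512 ± 104 CPM, border-associated macrophage-like cells at 445 ± 83.2 CPM and microglia-like cells at 423 ± 71.7 CPM (SD, n = 8 each) followed, each overlapping its neighbour. Relative to free RNA, Glul stood 51.2 times above the astrocyte markers in endothelial-like and 32.3 times in microglia-like cells (medians over mice). Slc1a3 was at 210.1 ± 49.8 CPM (SD, n = 8) in fibroblast-like cells, 12 times above the astrocyte markers on that scale. In microglia-like cells, at 207 ± 37.3 CPM (SD, n = 8), it was 28.9 times above, and in oligodendrocyte precursor-like cells, at 386 ± 134 CPM (SD, n = 8), it was 3.96 times above.

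The connexin genes were both also present in fibroblast-like cells. Fibroblast-like cells had Gja1 at 748 ± 175 CPM and Gjb6 at 119 ± 26.5 CPM (SD, n = 8 each), 70.5 and 49.8 times above the astrocyte markers relative to free RNA, and the Gja1 range there overlapped that of the reactive-like astrocytes. Gja1 was also found in endothelial-like cells at 108 ± 19.5 CPM (SD, n = 8), 19.2 times above the astrocyte markers. After the oligodendrocyte-like cells and both astrocyte states, Atp1b2 was highest in vessel-wall cells, at 508 ± 55.5 CPM in pericyte-like and 358 ± 71.1 CPM in smooth muscle-like cells (SD, n = 8 each), 89.4 and 114 times above the astrocyte markers. Kcnj10 in oligodendrocyte precursor-like cells was at 96.0 ± 42.4 CPM (SD, n = 8) and in microglia-like cells at 7.60 ± 1.26 CPM (SD, n = 8), 6.81 and 6.63 times above the astrocyte markers. Slc1a2 was at 621 ± 75.9 CPM in neuron-like cells (SD, n = 6), 13.1 times above the astrocyte markers and the third level after the 2 astrocyte states, with no overlap to either neighbour in that order. Aqp4 was at 659.8 ± 40.2 CPM in ependymal-like cells (SD, n = 3), 5.6 times above the astrocyte markers. Oligodendrocyte-like cells, which myelin removal depletes, were numerous enough in only 2 saline mice, where they averaged 1443 CPM of Atp1b2 and 1116 CPM of Aqp4, 11.3 and 8.05 times above the astrocyte markers. The astrocyte marker list itself was high there. In saline mice with such cells it stood at 39.6 to 90.9% of its free RNA level, against 1.36 to 2.31% in microglia-like cells. The part of astrocyte RNA in these oligodendrocyte-like values was not tested.

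**Figure D5:**
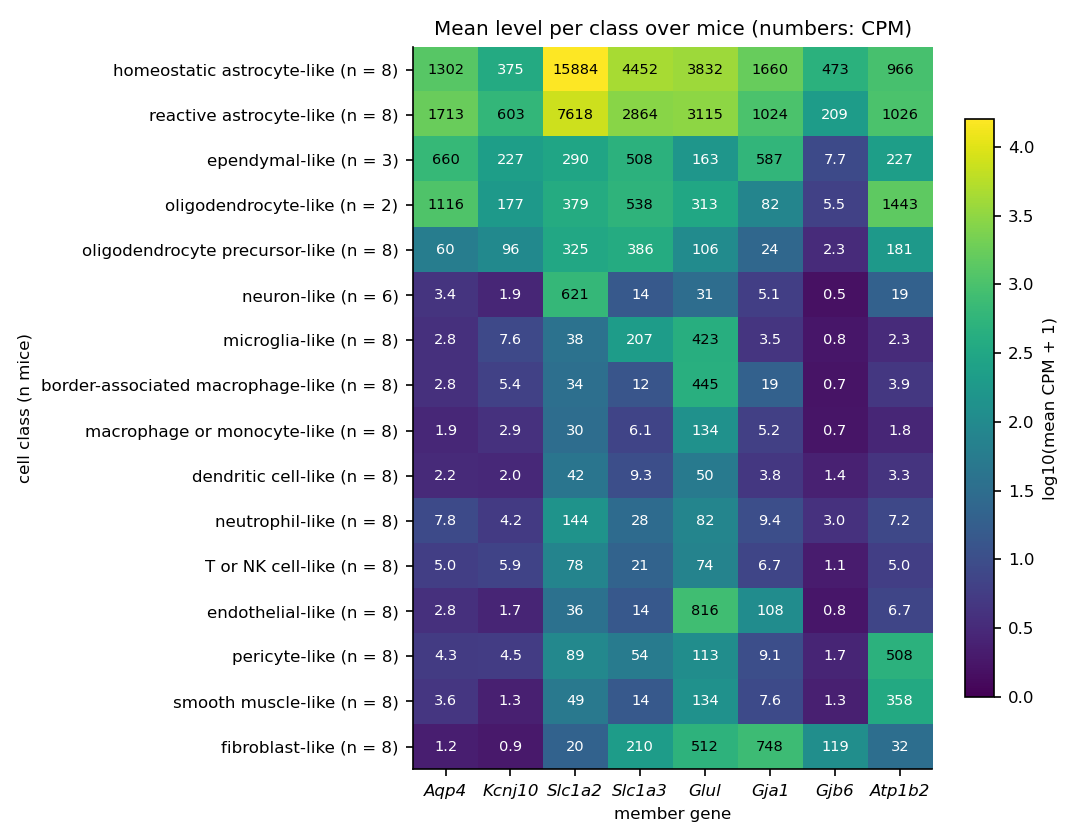
Mean CPM over mice of the 8 genes (columns) in 16 cell classes (rows), coloured by log10 of the mean CPM plus 1. Both astrocyte states are high for every gene, with oligodendrocyte-like cells (n = 2 mice, with astrocyte markers also high) above them for Atp1b2 (1443 CPM). Glul extends to endothelial-like, fibroblast-like, border-associated macrophage-like and microglia-like cells. Gja1 and Gjb6 extend to fibroblast-like cells and Atp1b2 to pericyte-like and smooth muscle-like cells.

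Across 8 other classes with enough cells, no tested member was called between ancrod and saline by edgeR or DESeq2, where edgeR called 0.00798% of genes in fibroblast-like cells, 0.00761% in microglia-like cells and 0% in the other 6, with 304 to 1531 genes at an unadjusted p below 0.05. DESeq2 called 143 of 12526 genes in fibroblast-like cells, 80 of 8939 in pericyte-like cells and 2 to 14 genes in each other class. Glul, Slc1a3, Gja1, Gjb6 and Atp1b2 were compared where, relative to free RNA, they stood well above the astrocyte markers. Glul in endothelial-like cells was at 824, 761, 915 and 779 CPM under saline and 738, 802, 886 and 823 CPM under ancrod, a log2 difference of -0.01 (95% interval -0.20 to 0.18). Glul and Slc1a3 in microglia-like cells both differed by -0.12, Gja1 in endothelial-like cells by 0.30 (95% interval -0.01 to 0.61), Gja1 in fibroblast-like cells by 0.17, Gjb6 there by -0.04 and Atp1b2 in pericyte-like cells by -0.13, each with overlapping groups.

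Several members closer to the astrocyte markers, relative to free RNA, had larger positive differences in these classes, none called. Slc1a2 differed by 0.67 in endothelial-like, 0.92 in microglia-like, 0.90 in macrophage or monocyte-like and 2.12 in border-associated macrophage-like cells, where it stood at medians of 0.96 to 1.55 times the astrocyte markers relative to free RNA, and it was positive in all 8 classes. Aqp4 differed by 1.07 in endothelial-like and 0.63 in microglia-like cells, and Gja1 by 0.80 in microglia-like cells. The classes come from the same libraries and share their free RNA, whose part in these differences was not tested. The largest was that of Slc1a2 in T or NK cell-like cells. Slc1a2 was at 19.8, 50.5, 22.7 and 16.2 CPM under saline and 48.7, 143, 139 and 180.3 CPM under ancrod, with ancrod mouse 1 just under saline mouse 2. The log2 difference of 2.20 (SE 0.378) missed the threshold (edgeR adjusted p = 0.0669) but passed without saline mouse 2 (edgeR adjusted p = 0.0274) or without ancrod mouse 1 (edgeR adjusted p = 0.0028), and leaving out other mice raised the edgeR adjusted p to at most 0.428. Relative to free RNA, Slc1a2 in these cells stood at a median of 0.672 times the astrocyte markers under saline and 1.74 times under ancrod, with a range of 0.441 to 7.22 over the 8 mice.

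Over the 16 classes, the genes whose mean levels followed each member most closely were ranked among 13994 genes by Pearson's r of log2 CPM. The classes share libraries and free RNA, so r is given as a description. Aqp4 was followed by Gpr37l1 (0.979), Gdpd2 (0.977) and Rfx4 (0.977), and Kcnj10 by its partner Kcnj16 (0.976) and then by Aqp4 itself (0.972). Slc1a2 was followed by Acsl6 (0.970) and the GABA transporter gene Slc6a11 (0.961), Slc1a3 by F3 (0.943), Glul by Naprt (0.910), Gja1 by Heph, second in rank (0.928), Gjb6 by Ranbp3l (0.958) and Atp1b2 by Pacsin3 (0.974). Among the members, Aqp4 and Kcnj10 were the most alike over classes (0.972) and Glul and Atp1b2 the least (0.384), and Gja1 and Gjb6 reached 0.870.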

How the data were processed

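The authors aligned the reads with STAR in Cell Ranger 7.1.0 to the GRCm39 (mm39) mouse genome, counting exonic and intronic reads, and deposited for each mouse a matrix of raw UMI counts per gene and droplet, with no normalization. No cell annotation was used here, so the cell names are rebuilt and may differ from those of the study. From the counts, droplets with at least 2000 UMIs and under 20% mitochondrial UMIs were kept (5080 to 6277 per mouse, 46216 in all, median 10653 to 17575 UMIs), and 0.596% of the barcodes kept occurred in more than 1 library. As predicted doublets, the 2144 droplets with the highest Scrublet scores in their libraries were removed. Their number was set beforehand from the droplets in each library. Cells were clustered on 2971 variable genes, without the 8 members and the 32 further genes (20 components, Leiden resolution 2), and astrocyte-like cells again at resolution 0.5. Clusters were named "-like" by marker lists. The members and lists were chosen with earlier results of these data known.

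UMIs were summed per mouse and class with at least 10 cells and tested with edgeR 4.0.16 (R 4.3.3; quasi-likelihood, TMM, filterByExpr, Benjamini-Hochberg over all genes tested, threshold 0.05), with the mouse as a block between states. Levels are CPM of these sums. Pseudocount 1 was used for log2 CPM over classes. Free RNA was read from droplets of at most 100 UMIs. It came to 0.654 to 1.28% of the UMIs of an astrocyte state, by whichever marker list of another cell type read lowest in a mouse. The fibroblast, neuron and oligodendrocyte lists read higher, at 1.54 to 5.86%, 2.79 to 26.5% and 20.7 to 396%. Intervals and limits cover counting error and the spread between mice, which are the replicates. Scripts were tested on simulated data. Named genes were the 8 members, the 12 genes of the further list with the largest state difference and the 3 with the largest treatment difference, and the 3 genes most like each member. Some genes that this rule names are not reported here. Other genes of that list and the genes called were named after their values were seen. DESeq2 1.42.0, a batch term, the replicate block, other filters, other resolutions and leaving out each mouse were alternatives. Sequences are from RefSeq (6 of 8 members had a promoter row).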

Additional observations from a re-analysis of the deposited data

Results flagged for a closer look

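Of 54 groups of 4 mice checked for a mouse far from the other 3, 2 stood out, where chance flags about 1 in 20. Kcnj10 in the homeostatic-like cells of saline mouse 2 was 252 CPM, against 389 to 416 CPM in the other 3 saline mice. Gjb6 in the reactive-like cells of saline mouse 2 was 171 CPM, against 217 to 226 CPM in the other 3. In both cases the value was the lowest of its group, and it is the same mouse. Without that mouse the ancrod difference in homeostatic-like Kcnj10 was -0.05 on the log2 scale instead of 0.11, not called in either.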

How the results depend on the processing

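The state differences of Slc1a2, Slc1a3, Gja1, Gjb6 and Kcnj10 kept their direction and call under every alternative run. Glul reversed with the stricter cell filter (0.0165), and Atp1b2 with finer subclusters (-0.185), states from a per-cell score (-0.103) and the shallow Fabp7 and Ckap2 cluster counted as reactive (-0.122). The cause was not tested. That cluster, the runs without dividing cells, without TMM and with the newer edgeR dispersion, and leaving out mice in the interaction were chosen after seeing the data. The ratio differences with score states were -0.137 for Slc1a2 to Slc1a3 and 0.391 for Gja1 to Gjb6. Leaving out a mouse gave -0.456 to -0.406 and 0.418 to 0.501, with adjusted exact permutation p = 0.0703 for both ratios whichever mouse was left out. With a mouse left out, this is the lowest adjusted p that these ratios alone can reach over the 9 ratio tests. The lost calls were therefore fixed by the number of mice and decide nothing about the ratios.

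The replicate numbers were checked for pairing: same-numbered saline and ancrod mice had correlations of -0.253 to 0.0953, and no saline mouse correlated best with its own number, so the numbers were not taken to pair mice, although number 4 marks the second batch. With the replicate block no member was called in astrocytes, the genes called in homeostatic-like cells went from 1 to 0, and in other classes 63 genes and 1 member (Slc1a2 in T or NK cell-like cells, 2.23, edgeR adjusted p = 0.0155) were called. All-astrocyte Glul became 0.00178 and fibroblast-like Gjb6 0.00362. Between states, the fit without the mouse as a block also called 7 members.

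The genes called under ancrod in homeostatic-like cells numbered 3 with DESeq2, 2 with free RNA subtracted, no count filter, score states or the newer dispersion, and 0 with a batch term, the stricter cell filter, finer subclusters or no TMM. Leaving out a mouse gave 0 to 1, 1 only without ancrod mouse 4. DESeq2 called 1 gene in all astrocyte-like cells. In other classes DESeq2 called 259 genes, the batch term 37 and leaving out a mouse 1 to 22, against 2, with 0 to 1 members (1 without saline mouse 2 or ancrod mouse 1). The interaction gave 0 to 6 genes, above 0 without saline mouse 2 or ancrod mouse 4.

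No ancrod difference of a member in astrocytes was called by any alternative, and the reversals lay near 0 (log2). In homeostatic-like cells Slc1a2 was -0.00323 with score states and -0.00626 without TMM. In reactive-like cells Slc1a2 was -0.0046 with doublets kept, -0.0249 with the stricter filter and -0.0519 with the added cluster. Slc1a3 was 0.0167 with finer subclusters and 0.0138 with score states, which gave 0.0397 for Glul. Gja1 was 0.072 with doublets kept, 0.0445 with score states and 0.0475 without dividing cells. Gjb6 was 0.00332 with free RNA subtracted, 0.00594 with no filter, 0.0842 with doublets kept, 0.0931 with score states, 0.0115 without TMM and 0.0887 without dividing cells. Atp1b2 was 0.0246 without dividing cells. All-astrocyte Slc1a2 was 0.0038 with DESeq2 and 0.00358 with free RNA subtracted. The Gja1 to Gjb6 ratio under ancrod in reactive-like cells was -0.0474 with score states. Unthinned shares of cells differed between treatments by 0 points for Slc1a2 and 0.589 for Gjb6 in homeostatic-like cells, and by 0.248 for Glul, -0.821 for Gja1 and -1.34 for Gjb6 in reactive-like cells.

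Leaving out a mouse gave, in homeostatic-like cells, 0.175 to 0.448 for Aqp4, -0.0481 to 0.176 for Kcnj10, -0.0579 to 0.0924 for Slc1a2, -0.0545 to 0.105 for Glul and -0.14 to 0.0857 for Gjb6. In reactive-like cells it gave -0.312 to 0.0553 for Aqp4, -0.0866 to 0.119 for Slc1a2, -0.105 to 0.108 for Gja1 and -0.0873 to 0.0888 for Gjb6. In all astrocyte-like cells it gave -0.0373 to 0.215 for Aqp4, -0.144 to 0.00384 for Kcnj10, -0.133 to 0.0908 for Slc1a2, -0.0455 to 0.0651 for Slc1a3, -0.0681 to 0.0621 for Glul, -0.216 to 0.017 for Gjb6 and -0.0431 to 0.0365 for Atp1b2. The interaction ranged from -0.582 to -0.313 for Aqp4, -0.551 to -0.199 for Kcnj10, -0.062 to 0.0853 for Slc1a2 and -0.115 to 0.157 for Gjb6, microglia-like Glul from -0.23 to -0.0224 and Slc1a3 from -0.228 to -0.0484, pericyte-like Atp1b2 from -0.193 to -0.0588, Gja1 from 0.143 to 0.368 in endothelial-like and from 0.035 to 0.368 in fibroblast-like cells, endothelial-like Glul from -0.0534 to 0.0381 and fibroblast-like Gjb6 from -0.184 to 0.147. The reactive-like ancrod differences of the ratios ranged from -0.0291 to 0.14 for Slc1a2 to Slc1a3, -0.152 to 0.132 for Gja1 to Gjb6 and -0.406 to 0.0386 for Kcnj10 to Aqp4. The reactive-like share differed by -3.21 to 7.38 points of astrocyte-like cells and by -0.838 to 11.9 points of both named states, negative only without ancrod mouse 1. Depth limits the reactive-like values, from 36 to 212 cells per mouse, where Gjb6 rests on 131 to 908 UMIs.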
